A study of Arabidopsis thaliana with 30 samples.

Results

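A set of 10 Arabidopsis thaliana genes of the response to cold and water loss, grouped here as protective protein genes, was followed in seedling shoots and in seedling roots. The genes were RD29A (AT5G52310), RD29B (AT5G52300), COR15A (AT2G42540), COR15B (AT2G42530), COR47 (AT1G20440), ERD10 (AT1G20450), RAB18 (AT5G66400), KIN2 (AT5G15970), LTP3 (AT5G59320) and LTP4 (AT5G59310). They were chosen by the shoot levels measured on these same arrays, together with known functions: RD29A, LTP3 and LTP4 had stood out among the genes higher in nitrogen-starved wild-type shoots, and COR15A among those higher in shoots of the overexpressor. In those 2 contrasts the members' values are therefore a description without a test. Of the 10 genes, 9 had a probe set of their own, among 21227 loci with such a probe set on the array. The only probe set for KIN2 also reads its neighbour KIN1 (AT5G15960), so its values stand for either gene or both and are left out of the counts. All 9 genes passed the filter on low levels in shoots, and 5 of them (RD29A, RD29B, COR47, ERD10 and LTP3) passed it in roots.

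These proteins are among the best known products of the plant response to cold, drought and the hormone abscisic acid. In the cold, CBF transcription factors bind the CRT/DRE element in the promoters of COR and related genes. Under water deficit, abscisic acid acts through ABF factors on a different element, the ABRE. The RD29A promoter carries both kinds of element, whereas RD29B and RAB18 are known mainly as abscisic acid reporters. COR15A and COR15B are small proteins of the chloroplast stroma that stabilise membranes during freezing. COR47, ERD10 and RAB18 are dehydrins, flexible hydrophilic proteins that bind water, membranes and other proteins. KIN1 and KIN2 are small hydrophilic cold-induced proteins. LTP3 and LTP4 are secreted lipid transfer proteins. As listed in the reference annotation, these pairs are direct neighbours on a chromosome: RD29A with RD29B, COR15A with COR15B, COR47 with ERD10, KIN1 with KIN2, and LTP3 with LTP4.

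The study sought target genes of AtNIGT1.2, a GARP-type transcription factor of the nitrogen response, in 10-day-old seedlings of the accession Col-0. The AtNIGT1.2 overexpressor (OX) was grown without a nitrogen source for 3 days after transfer at 7 days of age, and wild type in the same way (starved) or with 5 mM NH4NO3 (sufficient). The AtNIGT1.2-VP line, in which b-estradiol induces AtNIGT1.2 joined to a part that the labels call VP without spelling it out, was transferred at 9 days of age to 5 mM NH4NO3 for 24 h. It received b-estradiol at the 10 mM the labels state, or none (mock). Shoots and roots of each of the 5 groups were measured on 3 arrays, which the titles call biological replicates. The promoter of the overexpressor and the number of independent lines per construct are not given in the sources used here. OX was compared with starved wild type, starved with sufficient wild type, and the estradiol-treated with the mock-treated VP line; mock VP seedlings were also set against sufficient wild type, from which they differ in genotype, age at transfer and time on the plate.

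Values are RMA log2 levels, so a difference of 1 is a doubling on that scale, and each ± is the standard error of the limma fit unless SD is named. Each tissue had 15 arrays, with medians of 6.61 to 6.76 (shoots) or 6.92 to 7.08 (roots), and replicate arrays correlated at 0.994 or more. The transcript of AT1G68670, taken here as AtNIGT1.2, followed the labels: it averaged 13.88 in shoots of OX and 7.26 in starved wild type, and 12.50 with estradiol and 9.56 with mock in the VP line. In roots the same means were 13.67 and 7.81, and 13.33 and 9.21. Genes of green tissue (4 measured) summed to 14.46 to 15.31 on shoot arrays and to 8.80 to 11.64 on root arrays. The 6 root genes summed to 7.87 to 8.23 on shoot arrays and to 11.26 to 12.13 on root arrays, on tables normalized apart. In whole organs a lower level can come from fewer cells of a type or from less RNA per cell, and these cannot be told apart.

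In shoots of wild type, nitrogen starvation went with higher levels of most of these genes. LTP3 and LTP4 differed most, by 3.52 ± 0.66 and 3.95 ± 0.83 on the log2 scale. RAB18, COR15A, RD29A and COR15B were higher by 1.57 to 1.91, and the dehydrins ERD10 and COR47 by 0.88 ± 0.11 and 0.50 ± 0.10. Of the 9 genes, 8 passed the threshold upward, where 27.8% of all probe sets did, and the groups did not overlap for 6, where 31.7% of all did so upward. The median difference was 1.71 over the 9 genes and 0.00 over all probe sets tested. The genes were chosen on this contrast, so nothing is read from these counts or from the median.

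Between starved and sufficient wild type, the lipid transfer protein genes LTP3 and LTP4 had the widest range of levels of the 9 genes. LTP3 lay at 11.85, 11.39 and 11.12 in starved shoots, against 10.29, 5.98 and 7.53 in sufficient shoots. LTP4 lay at 12.42, 11.39 and 11.00 in starved shoots, against 10.77, 5.60 and 6.59 in sufficient shoots. Every starved array was above every sufficient one, but the sufficient arrays were spread over several log2 units, with replicate 1 close to the starved level.

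RD29A, the classical reporter of cold and drought signalling, lay at 10.33, 9.36 and 9.60 in starved shoots, against 8.89, 7.45 and 7.81 in sufficient shoots, a difference of 1.71 ± 0.33. The groups did not overlap. Its neighbour RD29B lay at 7.19, 6.79 and 6.34 in starved shoots, against 7.23, 5.59 and 5.93 in sufficient shoots. These groups overlapped, because sufficient replicate 1 was the highest of the 6 arrays, and RD29B was the member that did not pass the threshold (0.52 ± 0.33).

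COR15A lay at 9.56, 8.59 and 8.78 in starved shoots, against 8.70, 6.25 and 6.66 in sufficient shoots, and differed by 1.77 ± 0.44 with overlapping groups. COR15B lay at 9.90, 9.76 and 9.77 in starved shoots, against 9.43, 7.24 and 8.06 in sufficient shoots, and differed by 1.57 ± 0.39 without overlap. Transcripts of both genes were thus lowest in sufficient replicate 2. In sufficient replicate 1, COR15A lay within its starved range and COR15B a little below its own. RAB18 showed the same arrangement as COR15A, at 11.82, 10.84 and 11.21 in starved shoots, against 11.00, 8.33 and 8.80 in sufficient shoots (1.91 ± 0.46, overlapping).

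The neighbouring dehydrin genes COR47 and ERD10 varied least. COR47 lay at 11.63, 11.46 and 11.40 in starved shoots, against 11.29, 10.77 and 10.93 in sufficient shoots. ERD10 lay at 11.18, 10.83 and 10.81 in starved shoots, against 10.28, 9.87 and 10.04 in sufficient shoots. Neither gene's groups overlapped. The probe set shared by KIN1 and KIN2 lay at 11.48, 11.13 and 11.38 in starved shoots, against 10.62, 9.28 and 9.80 in sufficient shoots, higher by 1.43 ± 0.25.

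**Figure D1:**
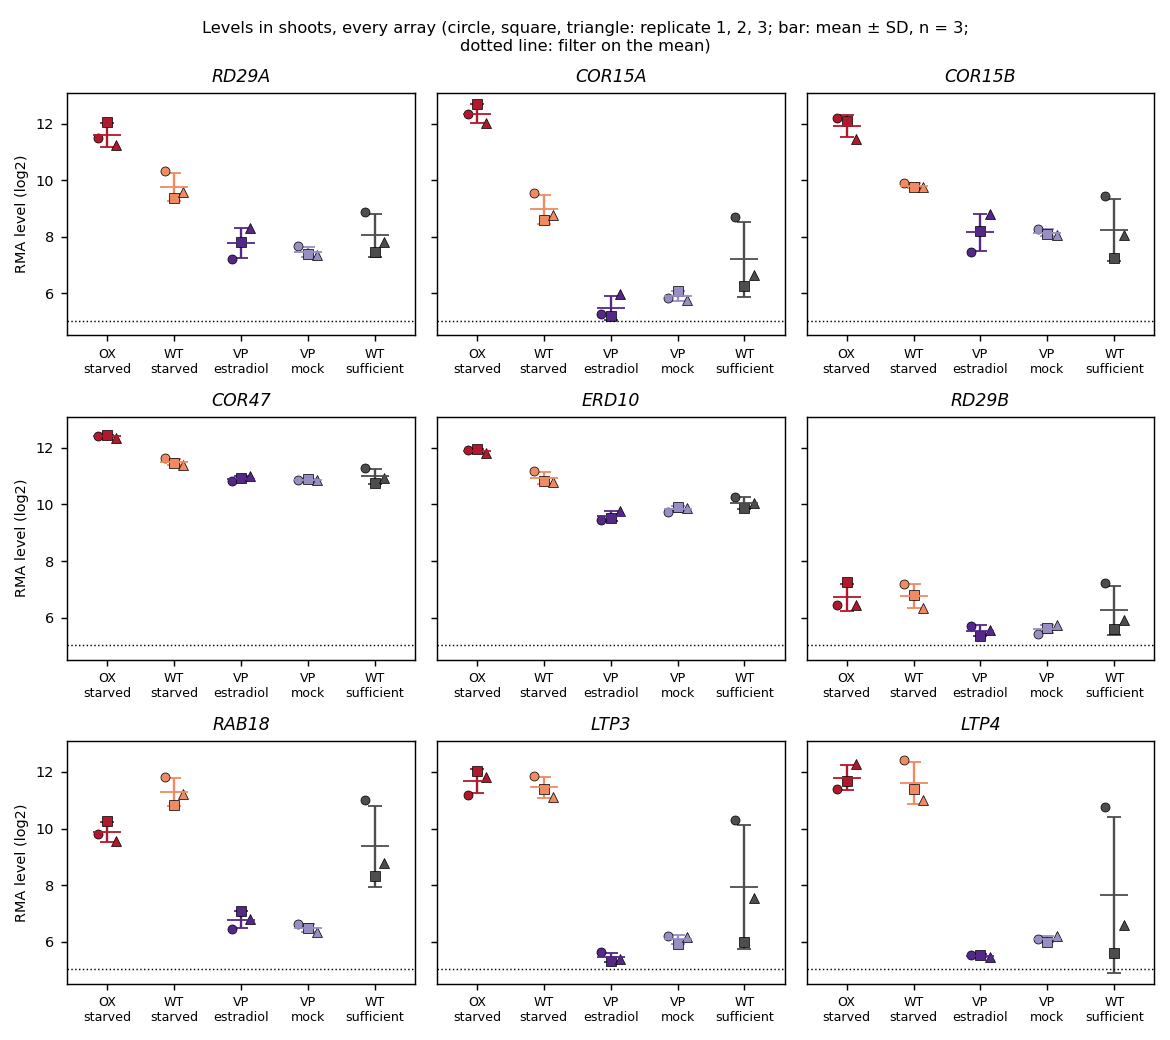
RMA log2 level (vertical axis) of the 9 genes in shoots, one panel per gene, with the 5 groups along the horizontal axis; circle, square and triangle are replicates 1, 2 and 3, bars the mean ± SD (n = 3), and the dotted line the filter on the mean. LTP3 and LTP4 spread from 10.29 and 10.77 down to 5.98 and 5.60 among sufficient wild-type arrays, and COR15A reaches 12.70 in OX.

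A single sufficient shoot array held the highest level of its group for all 9 genes: replicate 1, which held the highest of the 3 for 39.4% of all probe sets tested. Replicate 2 held the lowest for all 9, against 31.8% of all. Sufficient wild type was the group with the largest SD for 8 of the 9 genes, and for 19.2% of all probe sets. Without sufficient replicate 1 the starvation differences were larger: 5.51 for LTP4, 4.70 for LTP3, 2.73 for RAB18, 2.52 for COR15A, 2.16 for COR15B, 2.13 for RD29A, 1.01 for RD29B, 0.99 for ERD10 and 0.65 for COR47. Without replicate 2 they were smaller, at 2.92 for LTP4 and 2.54 for LTP3. The direction held in each case. In starved wild type, replicate 1 was likewise the highest of the 3 for all 9 genes, against 38.5% of all probe sets.

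Many regulators of abscisic acid and cold signalling and other protective protein genes were also higher in starved shoots, where 27.8% of all probe sets rose. The gene lists used here and below were written with earlier results of these data known, so their counts are a description. Of 14 tested regulators and reporters of abscisic acid signalling, 13 rose and none fell. Those with the smallest p were the phosphatase gene ABI1 (1.37 ± 0.16, adjusted p = 1.95e-06), ABF3, one of the factors that bind the ABRE (0.87 ± 0.12, adjusted p = 9.437e-06), and the homeobox gene HB7 (2.05 ± 0.30, adjusted p = 2.387e-05). Of 11 cold regulators 8 rose and 1 fell, led by the zinc finger gene ZAT10 (2.07 ± 0.25, adjusted p = 3.822e-06), the dehydration factor DREB2A (1.12 ± 0.17, adjusted p = 4.272e-05) and ZAT12 (1.14 ± 0.18, adjusted p = 4.851e-05). Among the genes that rose, CBF1 of this list and HAI2 of the abscisic acid list averaged 5.13 and 5.08 over the shoot arrays. Both passed the filter at 5.03 only through starved wild type (5.96 and 6.43). Their places in these counts rest on the group where they were high. Of 15 other protective protein genes 9 rose and none fell, among them the chloroplast envelope protein genes COR413IM1 (1.50 ± 0.13, adjusted p = 9.499e-08) and COR413IM2 (0.67 ± 0.06, adjusted p = 3.043e-07) and the dehydrin gene ERD14 (0.71 ± 0.10, adjusted p = 1.552e-05). Other type 1 lipid transfer protein genes did not move as one group: of 7 tested, 2 rose and 2 fell, with AT2G18370 higher by 1.99 ± 0.19 (adjusted p = 4.187e-07) and LTP6 and LTP2 lower, at -0.85 ± 0.12 and -0.74 ± 0.17. Of 7 shoot epidermis markers 1 rose and 4 fell, with summed levels of 12.47 to 12.53 in starved and 12.57 to 12.61 in sufficient shoots, and 3 of 4 green tissue markers fell, with 14.99 to 15.15 in starved and 15.28 to 15.31 in sufficient shoots. Their part in the members' differences was not tested.

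In starved shoots, the overexpressor set the members apart from one another. COR15A, COR15B, RD29A, ERD10 and COR47 were higher in OX than in wild type, while RAB18 was lower. RD29B, LTP3 and LTP4 stayed close to the starved wild-type level. Of the 9 genes 5 passed the threshold upward and 1 downward, where 30.6% and 20.7% of all probe sets did, and the same numbers had groups that did not overlap (34.4% upward and 23.2% downward over all). This contrast was also used in choosing the genes, and nothing is read from these counts. The same starved wild-type arrays (3 per tissue) serve this contrast and the starvation contrast.

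COR15A differed most, at 12.34, 12.70 and 12.03 in OX, against 9.56, 8.59 and 8.78 in starved wild type, a difference of 3.38 ± 0.44. COR15B lay at 12.18, 12.09 and 11.45 in OX, against 9.90, 9.76 and 9.77 in starved wild type (2.10 ± 0.39). RD29A lay at 11.48, 12.07 and 11.23 in OX, against 10.33, 9.36 and 9.60 in starved wild type (1.83 ± 0.33). For all 3 genes every OX array lay above every wild-type shoot array.

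The dehydrin genes divided. ERD10 lay at 11.92, 11.96 and 11.82 in OX, against 11.18, 10.83 and 10.81 in starved wild type (0.96 ± 0.11), and COR47 at 12.43, 12.46 and 12.36, against 11.63, 11.46 and 11.40 (0.92 ± 0.10). RAB18 lay at 9.82, 10.27 and 9.57 in OX, against 11.82, 10.84 and 11.21 in starved wild type. The RAB18 difference was -1.40 ± 0.46, with every OX array below every starved wild-type array. Within the RD29 pair only RD29A was set apart, since RD29B lay at 6.45, 7.27 and 6.44 in OX, against 7.19, 6.79 and 6.34 in starved wild type (-0.06 ± 0.33).

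LTP3 lay at 11.18, 12.02 and 11.83 in OX, against 11.85, 11.39 and 11.12 in starved wild type (0.23 ± 0.66). LTP4 lay at 11.41, 11.69 and 12.29 in OX, against 12.42, 11.39 and 11.00 in starved wild type (0.19 ± 0.83). Both lipid transfer protein genes overlapped between the genotypes. The shared KIN1 and KIN2 probe set was higher in OX, at 13.10, 13.25 and 13.12, against 11.48, 11.13 and 11.38 in starved wild type (1.83 ± 0.25).

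Most of the known regulators that passed were lower in OX shoots. Over all probe sets tested 30.6% rose and 20.7% fell. Of 11 cold regulators none rose and 8 fell, with the smallest p for ZAT12 (-2.15 ± 0.18, adjusted p = 7.007e-08), ZAT10 (-2.99 ± 0.25, adjusted p = 8.626e-08) and CBF1, one of the factors that bind the CRT/DRE element (-1.35 ± 0.15, adjusted p = 1.974e-06). CBF1 averaged 5.13 over the shoot arrays and passed the filter at 5.03 only through starved wild type (5.96), the reference here. Its OX mean of 4.61 lay under the filter line. Of 14 abscisic acid regulators and reporters 2 rose and 5 fell, among them the NAC factor gene RD26 (-2.76 ± 0.18, adjusted p = 4.533e-09), ABI5, a factor of the ABF family (1.06 ± 0.09, adjusted p = 1.392e-07), and MYB96 (-1.32 ± 0.14, adjusted p = 1.192e-06). Of 15 other protective protein genes 5 rose and 1 fell. The smallest p belonged to COR413IM2 (-0.59 ± 0.06, adjusted p = 1.218e-06), the small membrane protein gene RCI2A (0.71 ± 0.09, adjusted p = 1.015e-05) and the alcohol dehydrogenase gene ADH1 (1.55 ± 0.21, adjusted p = 1.288e-05). Of 7 other lipid transfer protein genes LTP2 rose (0.65 ± 0.17, adjusted p = 0.005514) and LTP6 fell (-0.30 ± 0.12, adjusted p = 0.04039). All 4 green tissue markers fell, with summed levels of 14.46 to 14.62 in OX and 14.99 to 15.15 in starved wild type, and of 7 epidermis markers 3 rose and 2 fell, with 12.55 to 12.66 in OX and 12.47 to 12.53 in starved wild type. Their part in the members' differences was not tested.

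**Figure D2:**
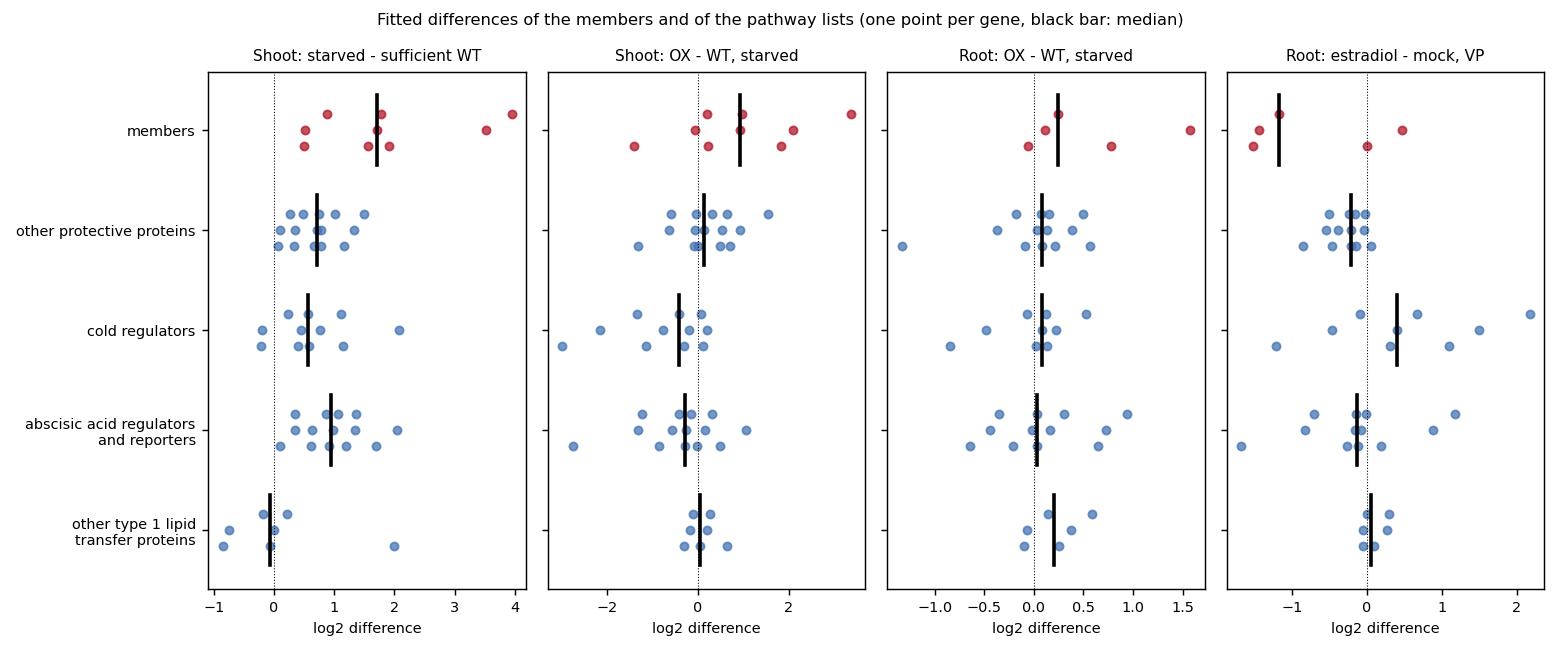
Fitted log2 differences (horizontal axis) of the members (red) and of the pathway lists (blue) in 4 contrasts, one point per gene tested and a black bar at the median. In starved OX shoots the members' median is 0.92 and that of the cold regulators -0.41, and in estradiol-treated VP roots the members' median is -1.18 and that of the cold regulators 0.40. The members were chosen with both shoot contrasts known, so their medians in shoots are a description only.

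In VP shoots, 24 h of estradiol moved none of the 9 genes past the threshold, where 49.3% of all probe sets passed it in either direction. With mock, COR15A, LTP3, LTP4 and RD29B averaged 5.90, 6.09, 6.10 and 5.59, not far above the filter at 5.03. Such low levels limit how large a fall could be seen. COR15A lay at 5.27, 5.22 and 5.99 with estradiol, against 5.85, 6.09 and 5.77 with mock (-0.41 ± 0.44, adjusted p = 0.46 in limma). RD29A lay at 7.23, 7.80 and 8.31 with estradiol, against 7.67, 7.38 and 7.37 with mock (0.31 ± 0.33). COR15B and COR47 differed by 0.01 ± 0.39 and 0.03 ± 0.10, RAB18 by 0.28 ± 0.46 and RD29B by -0.06 ± 0.33. The shared KIN1 and KIN2 probe set lay at 9.30, 9.58 and 10.25 with estradiol, against 9.39, 9.24 and 9.18 with mock, and did not pass (0.44 ± 0.25, adjusted p = 0.1594). Intervals of the larger effects were wide: the 95% interval ran from -1.34 to 0.53 for COR15A and from -0.40 to 1.02 for RD29A. These widths rest on the spread of all 5 groups, not of the VP arrays alone. The SD of COR15A was 1.31 in sufficient wild type, 0.17 with mock and 0.43 with estradiol. That of RD29A was 0.75, 0.17 and 0.54 in the same groups.

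The calls of LTP3, LTP4 and ERD10 in these shoots depended on the fit. LTP3 lay at 5.64, 5.31 and 5.41 with estradiol, against 6.19, 5.91 and 6.18 with mock, and LTP4 at 5.55, 5.53 and 5.46, against 6.11, 6.00 and 6.19. Every estradiol array was below every mock array for both, as for 30.4% of all probe sets. In the fit with the spread of all 5 groups the differences were -0.64 ± 0.66 (adjusted p = 0.4335) and -0.59 ± 0.83 (adjusted p = 0.5777). Fitted on these 2 groups alone, LTP3, LTP4 and ERD10 fell (adjusted p of 0.001549, 0.0008405 and 0.02837), 3 of the 9 genes, where 25.7% of all probe sets fell. ERD10 lay at 9.44, 9.52 and 9.77 with estradiol, against 9.73, 9.90 and 9.88 with mock (-0.26 ± 0.11, adjusted p = 0.07114 over 5 groups), and it also fell after median centring (-0.30, adjusted p = 0.03129), after quantile normalization (-0.29, adjusted p = 0.04565) and without estradiol replicate 3 (-0.36, adjusted p = 0.02555). In the same shoots 3 of 7 other lipid transfer protein genes fell, led by LTP6 (-0.95 ± 0.12, adjusted p = 7.596e-06), and none rose, while 4 of 7 epidermis markers fell, with summed levels of 12.72 to 12.77 with estradiol and 12.85 to 12.87 with mock. The part of the epidermis markers was not tested.

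The response of the regulators to estradiol in shoots was mixed, where 49.3% of all probe sets passed in either direction. Of 11 cold regulators 2 rose and 5 fell, with the smallest p for RAV1 (-0.99 ± 0.10, adjusted p = 6.435e-07). Of 14 abscisic acid regulators 2 rose, ABF4 (0.38 ± 0.10) and the phosphatase gene HAB1 (0.58 ± 0.16), and none fell. Of 15 other protective protein genes 4 rose and 1 fell, with the smallest p for SAG21 (1.36 ± 0.10, adjusted p = 2.816e-08).

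Without estradiol, VP shoots had a lower RAB18 level than sufficient wild type, and lower COR15A and LTP3 in calls that depended on the fit. The 2 groups differed in genotype, age at transfer and time on the plate, and these cannot be told apart. Of the 9 genes 3 fell and none rose in mock VP shoots, where 15.8% of all probe sets fell and 17.7% rose. RAB18 lay at 6.63, 6.49 and 6.36 in mock VP shoots, against 11.00, 8.33 and 8.80 in sufficient wild type, a difference of -2.88 ± 0.46 (adjusted p = 0.0002391). COR15A lay at 5.85, 6.09 and 5.77 in mock VP shoots, against 8.70, 6.25 and 6.66 in wild type (-1.30 ± 0.44, adjusted p = 0.03242), and LTP3 at 6.19, 5.91 and 6.18, against 10.29, 5.98 and 7.53 (-1.84 ± 0.66, adjusted p = 0.0401). RAB18 and COR15A did not overlap between the groups (22.1% of all probe sets were separate and lower), whereas for LTP3 sufficient replicate 2 lay among the mock arrays. RAB18 passed in every fit that left out an array; without sufficient replicate 1, COR15A differed by -0.55 (adjusted p = 0.1386) and LTP3 by -0.66 (adjusted p = 0.1484). Both of these calls were also lost without any 1 of the mock replicates and in the fit of the compared groups alone (adjusted p = 0.06149 and 0.09797), and that of LTP3 without sufficient replicate 3 (adjusted p = 0.0567).

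Of 14 abscisic acid regulators and reporters 7 fell in mock VP shoots and none rose, where 15.8% of all probe sets fell and 17.7% rose. The smallest p belonged to the homeobox gene HB12 (-1.61 ± 0.18, adjusted p = 1.312e-05). Of 15 other protective protein genes 4 rose and 4 fell. Of 7 epidermis markers 4 rose and none fell, with summed levels of 12.85 to 12.87 in mock VP and 12.57 to 12.61 in sufficient wild-type shoots. Their part in the members' differences was not tested. Sufficient wild type serves both this contrast and the starvation contrast.

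Over all 5 shoot groups OX had the highest mean and starved wild type the second highest for COR15A, COR15B, RD29A, COR47, ERD10, LTP3, LTP4 and the shared KIN1 and KIN2 probe set, although the arrays of OX and starved wild type overlapped for LTP3 and LTP4. For RD29A the means were 11.59 in OX, 9.76 in starved wild type, 7.78 with estradiol, 7.47 with mock and 8.05 in sufficient wild type, and the arrays of the last 3 groups overlapped. RAB18 had another order, with 9.89 in OX, 11.29 in starved wild type, 6.78 with estradiol, 6.50 with mock and 9.38 in sufficient wild type. OX and sufficient wild type overlapped for RAB18, as did estradiol and mock.

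Roots gave a different picture from shoots. COR15A (4.17 to 4.68 over the 15 arrays), COR15B (4.40 to 4.78), RAB18 (4.60 to 5.29) and LTP4 (4.74 to 5.86) averaged below the filter at 5.33, so they were not tested there. RD29B, with a mean of 5.38, lay just above it. COR47 (10.94 to 12.30) and ERD10 (9.43 to 11.37) lay far above it on every array.

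**Figure D3:**
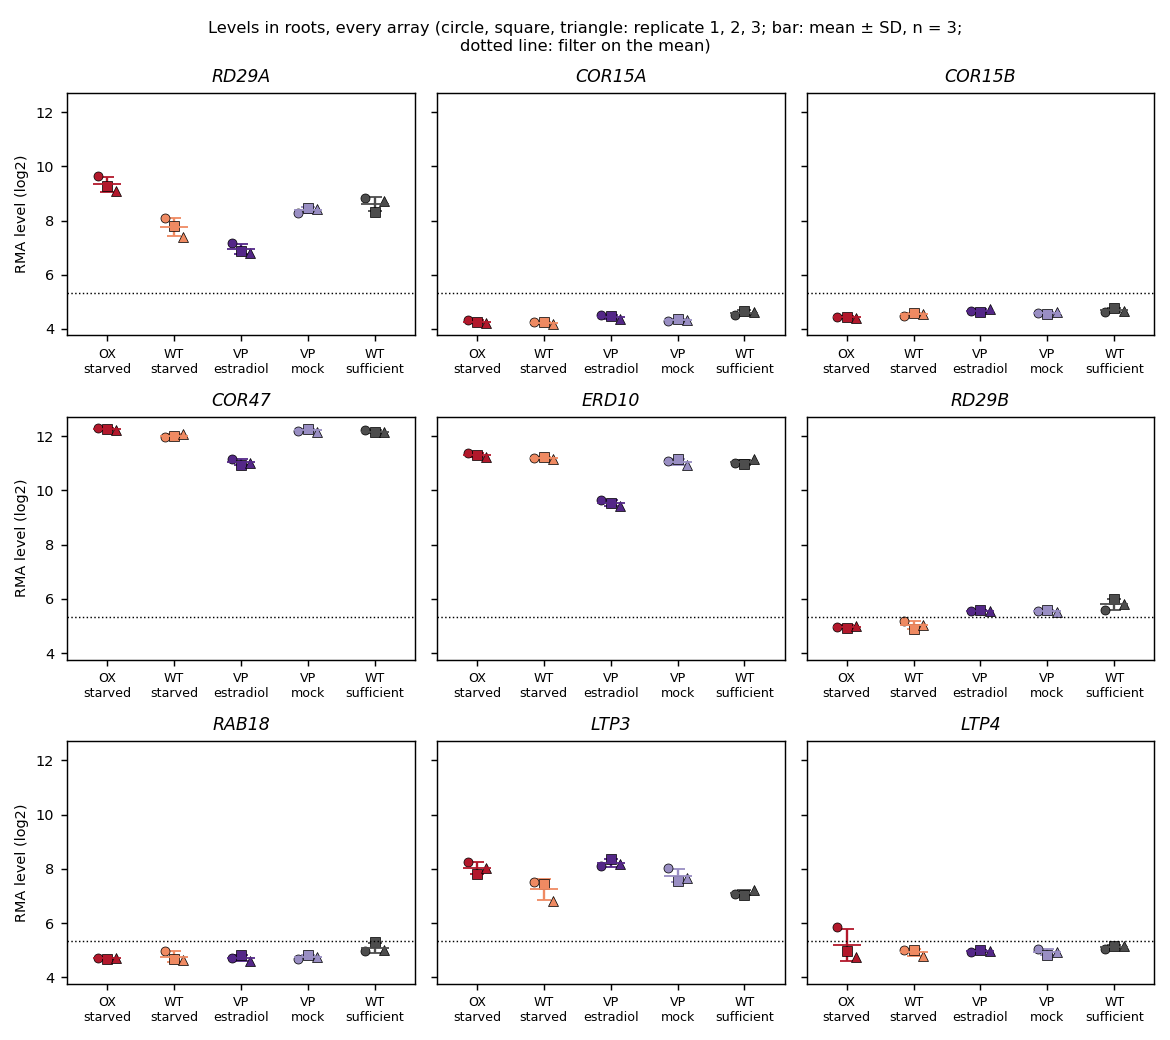
RMA log2 level (vertical axis) of the 9 genes in roots, drawn as for shoots, with the 5 groups along the horizontal axis and the mean ± SD (n = 3). COR47 and ERD10 average 11.04 and 9.53 in estradiol-treated VP roots, the lowest of the 5 groups, and COR15A, COR15B, RAB18 and LTP4 average below the dotted filter line.

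Nitrogen starvation lowered RD29A in wild-type roots, and RD29B was also lower, at levels near the filter. Of the 5 genes tested 3 fell and 1 rose, where 21.8% of all probe sets fell and 33.1% rose. RD29A lay at 8.08, 7.79 and 7.40 in starved roots, against 8.82, 8.33 and 8.72 in sufficient roots (-0.87 ± 0.15, adjusted p = 6.71e-05). RD29B lay at 5.17, 4.89 and 5.04 in starved roots, against 5.60, 5.99 and 5.82 in sufficient roots (-0.77 ± 0.09, adjusted p = 7.159e-07). Every starved array was below every sufficient one for both genes, as for 22.6% of all probe sets, and the starved RD29B values lay under the filter line. RD29B averaged 5.38 over the root arrays and passed the filter only through sufficient wild type (5.80), the reference here. Its place among the 3 genes that fell therefore rests on the group where it was high.

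The dehydrin genes moved little. COR47 lay at 11.96, 12.02 and 12.09 in starved roots, against 12.24, 12.14 and 12.14 in sufficient roots (-0.15 ± 0.05, adjusted p = 0.01716). ERD10 lay at 11.20, 11.22 and 11.18 in starved roots, against 11.00, 10.97 and 11.15 in sufficient roots (0.16 ± 0.06, adjusted p = 0.0359). The ERD10 call was lost when each array was centred on its median (0.07, adjusted p = 0.296) or quantile-normalized (0.12, adjusted p = 0.0948), and without starved replicate 2 or sufficient replicate 2. Both calls were lost without starved replicate 1, without sufficient replicate 1, and without the intensity trend. LTP3 lay at 7.51, 7.43 and 6.80 in starved roots, against 7.08, 7.04 and 7.22 in sufficient roots, and did not pass (0.13 ± 0.15, adjusted p = 0.4716), but it rose without starved replicate 3 (0.36, adjusted p = 0.02841). The shared KIN1 and KIN2 probe set fell, with 8.84, 8.84 and 8.86 in starved roots, against 9.56, 9.38 and 9.78 in sufficient roots (-0.72 ± 0.13, adjusted p = 5.455e-05).

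Among the other genes of the pathway in starved roots, 9 of 13 protective protein genes fell and 3 rose, led by SAG21 (-0.85 ± 0.05, adjusted p = 9.491e-12), the membrane protein gene COR413-PM1 (-0.79 ± 0.05, adjusted p = 1.823e-11) and the dehydrin gene AT1G54410 (-0.60 ± 0.04, adjusted p = 6.625e-11). Of 9 cold regulators 1 rose and 5 fell, with RAV1 at -2.13 ± 0.09 (adjusted p = 5.341e-14). Of 12 abscisic acid regulators 5 rose and 4 fell, with RD26 at -1.20 ± 0.08 (adjusted p = 3.527e-11). Over all probe sets tested 33.1% rose and 21.8% fell. All 4 green tissue markers fell, with summed levels of 10.27 to 10.32 in starved and 11.55 to 11.64 in sufficient roots, and of 6 root markers 3 rose and 1 fell, with 12.03 to 12.11 in starved and 11.67 to 11.69 in sufficient roots. Their part in the members' changes was not tested.

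In starved roots, overexpression raised RD29A, LTP3 and COR47. These 3 of the 5 genes rose and none fell, where 21.4% of all probe sets rose and 16.7% fell. RD29A lay at 9.65, 9.26 and 9.10 in OX, against 8.08, 7.79 and 7.40 in starved wild type (1.58 ± 0.15, adjusted p = 4.542e-08). LTP3 lay at 8.25, 7.80 and 8.03 in OX, against 7.51, 7.43 and 6.80 in starved wild type (0.78 ± 0.15, adjusted p = 0.000327). COR47 lay at 12.30, 12.27 and 12.22 in OX, against 11.96, 12.02 and 12.09 in starved wild type (0.24 ± 0.05, adjusted p = 0.000898). For these genes every OX array lay above every wild-type array of the contrast, as it did for ERD10 and for 27.6% of all probe sets.

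ERD10, at 11.37, 11.32 and 11.25 in OX, against 11.20, 11.22 and 11.18 in starved wild type, did not pass (0.11 ± 0.06, adjusted p = 0.1515). RD29B lay at 4.98, 4.92 and 5.02 in OX, against 5.17, 4.89 and 5.04 in starved wild type, under the filter line in both (-0.06 ± 0.09, adjusted p = 0.6402). The shared KIN1 and KIN2 probe set rose, with 9.88, 9.50 and 9.47 in OX, against 8.84, 8.84 and 8.86 in starved wild type (0.77 ± 0.13, adjusted p = 5.047e-05). RD29A and the KIN probe set thus moved in roots as they differed in shoots, while COR15A, the gene that differed most in OX shoots, lay below the filter in roots of both genotypes.

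Of 13 other protective protein genes in OX roots 5 rose and 2 fell, with the smallest p for the galactinol synthase gene GOLS1 (-1.33 ± 0.07, adjusted p = 1.19e-12), COR413-PM1 (0.56 ± 0.05, adjusted p = 8.352e-09) and LEA14 (0.50 ± 0.06, adjusted p = 1.396e-06). Of 12 abscisic acid regulators 3 rose and 4 fell, led by ABF1 (0.94 ± 0.07, adjusted p = 1.061e-09). Of 9 cold regulators 1 rose and 2 fell, led by ZAT12 (-0.84 ± 0.09, adjusted p = 3.79e-07). Over all probe sets tested 21.4% rose and 16.7% fell. Of 6 other lipid transfer protein genes LTP2 (0.58 ± 0.09, adjusted p = 3.671e-05) and AT2G18370 (0.38 ± 0.06, adjusted p = 5.431e-05) rose and none fell. Of 6 epidermis markers 5 rose and none fell, with summed levels of 10.22 to 10.31 in OX and 9.91 to 9.94 in starved wild type. All 4 green tissue markers fell, with 8.80 to 8.97 in OX and 10.27 to 10.32 in starved wild type. Their part in the rise of LTP3 and the other members was not tested.

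Induction of AtNIGT1.2-VP lowered 3 of the 5 genes in roots: ERD10, RD29A and COR47. LTP3 rose and RD29B did not pass the threshold. Over all probe sets tested 28.3% fell and 15.6% rose, and the median difference was -1.18 over the 5 genes and -0.07 over all.

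ERD10 lay at 9.63, 9.52 and 9.43 with estradiol, against 11.08, 11.15 and 10.95 with mock (-1.53 ± 0.06, adjusted p = 1.163e-14). RD29A lay at 7.18, 6.86 and 6.82 with estradiol, against 8.26, 8.48 and 8.44 with mock (-1.44 ± 0.15, adjusted p = 1.039e-07). COR47 lay at 11.15, 10.94 and 11.01 with estradiol, against 12.21, 12.27 and 12.16 with mock (-1.18 ± 0.05, adjusted p = 7.203e-14). For each of the 3 genes every estradiol array lay below every mock array, as for 39.3% of all probe sets, and the estradiol arrays held the lowest levels of all 15 root arrays.

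LTP3 lay at 8.10, 8.37 and 8.17 with estradiol, against 8.03, 7.56 and 7.66 with mock (0.46 ± 0.15, adjusted p = 0.01639), a call that was lost without estradiol replicate 2 and without mock replicate 2 or 3. RD29B lay at 5.55, 5.58 and 5.55 with estradiol, against 5.54, 5.60 and 5.52 with mock (0.00 ± 0.09, adjusted p = 0.9761, 95% interval -0.19 to 0.20). The shared KIN1 and KIN2 probe set fell, with 7.44, 7.54 and 6.99 with estradiol, against 8.58, 8.27 and 8.42 with mock (-1.10 ± 0.13, adjusted p = 3.006e-07).

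Other protective protein genes fell as well in these roots, whereas most of the cold regulators that passed rose. Over all probe sets tested 28.3% fell and 15.6% rose. Of 13 protective protein genes none rose and 8 fell, led by COR413-PM1 (-0.85 ± 0.05, adjusted p = 5.715e-12), ERD14 (-0.50 ± 0.04, adjusted p = 7.067e-09) and GOLS1 (-0.55 ± 0.07, adjusted p = 7.394e-07). Of 9 cold regulators 6 rose and 2 fell, with ZAT10 at 2.18 ± 0.15 (adjusted p = 1.114e-10), MYB15, a repressor of CBF genes, at 1.50 ± 0.12 (adjusted p = 9.055e-10) and DREB2A at -1.21 ± 0.10 (adjusted p = 1.117e-09). Of 12 abscisic acid regulators 2 rose, the phosphatase genes HAB1 (0.88 ± 0.07, adjusted p = 6.053e-10) and ABI2 (1.17 ± 0.11, adjusted p = 1.387e-08), and 4 fell, with RD26 at -1.68 ± 0.08 (adjusted p = 1.5e-13). All 4 green tissue markers fell, with summed levels of 10.20 to 10.27 with estradiol and 10.88 to 11.12 with mock, and of 6 root markers none rose and 3 fell, with 11.26 to 11.33 with estradiol and 11.74 to 11.87 with mock. Their part in the members' changes was not tested.

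The effects of overexpression and of AtNIGT1.2-VP induction in roots, which share no array, were set against each other in the same fit. The overexpression effect exceeded the induction effect by 3.02 ± 0.22 for RD29A (adjusted p = 2.351e-10), 1.65 ± 0.09 for ERD10 (adjusted p = 1.416e-12) and 1.42 ± 0.07 for COR47 (adjusted p = 1.146e-12). RD29A rose in one contrast and fell in the other, and so did COR47, while ERD10 passed only in the VP line. The difference passed for 3 of the 5 genes, each upward, where 29.5% of all probe sets passed upward and 17.3% downward. It did not pass for LTP3 (0.32 ± 0.21, adjusted p = 0.235) or RD29B (-0.07 ± 0.13, adjusted p = 0.7103). The seedlings of the 2 contrasts differed in nitrogen supply and in length of treatment as well as in construct, and these cannot be told apart. In shoots the same difference, given as a description, was 3.79 ± 0.62 for COR15A, 2.09 ± 0.56 for COR15B, 1.52 ± 0.47 for RD29A, 1.22 ± 0.16 for ERD10, 0.88 ± 0.14 for COR47, -1.69 ± 0.65 for RAB18, 0.87 ± 0.93 for LTP3, 0.78 ± 1.17 for LTP4 and 0.00 ± 0.46 for RD29B.

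In mock VP roots LTP3 was the member that passed against sufficient wild type. It lay at 8.03, 7.56 and 7.66 in mock VP roots, against 7.08, 7.04 and 7.22 in sufficient wild type (0.64 ± 0.15, adjusted p = 0.006004); 1 of 5 genes rose and none fell, where 12.1% of all probe sets rose and 6.1% fell. Without mock replicate 1 the difference was 0.49 (adjusted p = 0.0563). RD29A differed by -0.23 ± 0.15 and RD29B by -0.25 ± 0.09 (adjusted p = 0.07349), while COR47 and ERD10 differed by 0.04 ± 0.05 and 0.02 ± 0.06. The shared KIN1 and KIN2 probe set fell, with 8.58, 8.27 and 8.42 in mock VP roots, against 9.56, 9.38 and 9.78 in sufficient wild type (-1.15 ± 0.13, adjusted p = 2.05e-06). Of 6 other lipid transfer protein genes 3 rose and 1 fell, with LTP5 at -0.47 ± 0.07, LTP6 at 0.71 ± 0.12 and LTP2 at 0.54 ± 0.09. Of 6 epidermis markers 2 rose and none fell, with summed levels of 9.73 to 10.13 in mock VP and 9.41 to 9.60 in sufficient wild-type roots. Of 4 green tissue markers 3 fell, with 10.88 to 11.12 in mock VP and 11.55 to 11.64 in sufficient wild type, and of 6 root markers 2 rose and none fell, with 11.74 to 11.87 in mock VP and 11.67 to 11.69 in sufficient wild type. What these markers contribute was not tested.

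**Figure D4:**
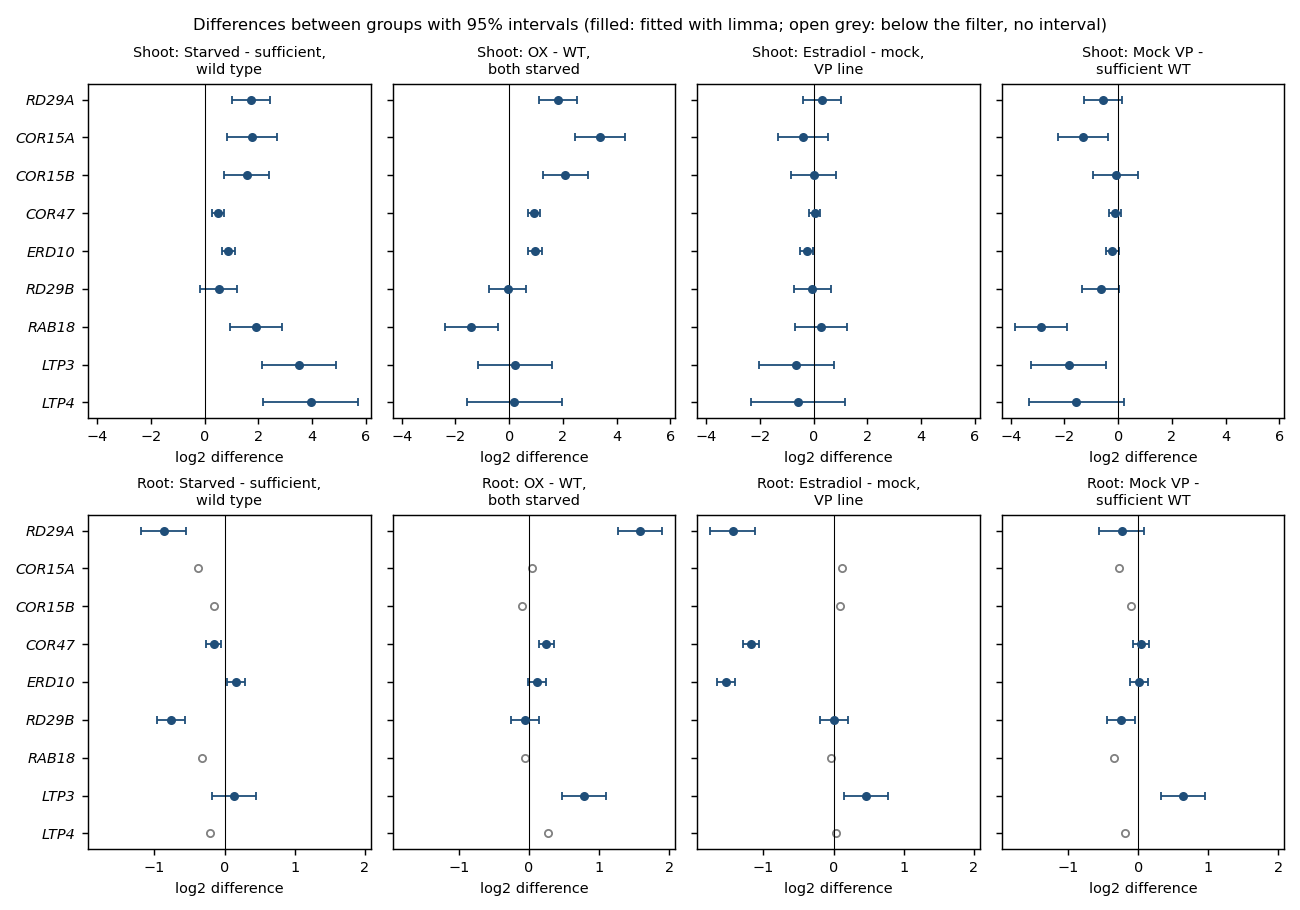
Log2 differences (horizontal axis) of the 9 genes in the 4 contrasts, shoots above and roots below, as filled points with 95% intervals from the limma fit; open grey points are genes below the filter, with no interval. RD29A and COR47 are to the right of zero in OX roots (1.58 and 0.24) and to the left with estradiol in VP roots (-1.44 and -1.18), and all 9 intervals for estradiol in VP shoots except that of ERD10 include zero.

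The members were also compared by the shape of their profiles, each centred on its own mean over the 15 arrays of a tissue. In shoots the neighbours LTP3 and LTP4 were each other's nearest gene among 15097, with a root mean square difference of 0.37 on the log2 scale; the next nearest to LTP3 was UGT74E2, at 1.01. RD29A and COR15B, which lie on different chromosomes, were likewise each other's nearest, at 0.32. COR15A was nearest to RD29A, but at a larger distance of 1.05. The nearest to COR47 was AT3G55760 (0.14), to ERD10 AT1G16850 (0.17), to RAB18 AT1G05340 (0.61) and to RD29B TSPO (0.20). In roots no member was nearest to another member: ERD10 was nearest to GI (0.12), COR47 to AT1G72200 (0.078), RD29A to CHI (0.29), LTP3 to AT5G45670 (0.18) and RD29B to AT1G05540 (0.072). These distances depend on how much a gene varies and carry no test.

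The authors' deposited table holds tests of the same contrasts, adjusted by the Benjamini-Hochberg method. In the authors' deposited table the adjusted p for estradiol in VP roots was 0.006863 for ERD10, 0.01399 for COR47, 0.02078 for RD29A and 0.1734 for LTP3. For LTP3 and LTP4 in VP shoots the authors' deposited table gives 0.05691 and 0.03637. None of the root calls made here for overexpression and starvation passed 0.05 by the Benjamini-Hochberg value of the authors' deposited table. For overexpression in roots the authors' deposited table gives 0.06214 for RD29A, 0.08321 for COR47 and 0.203 for LTP3. For starvation in roots the authors' deposited table gives 0.05424 for RD29B, 0.1066 for RD29A, 0.1211 for COR47 and 0.2148 for ERD10. The q-values of the authors' deposited table were smaller. For overexpression in roots they were 0.03258 for RD29A, 0.04363 for COR47 and 0.1064 for LTP3. For starvation in roots they were 0.01723 for RD29B, 0.03387 for RD29A, 0.03847 for COR47 and 0.06824 for ERD10. The shoot contrasts used in choosing the genes also gave fewer calls by the authors' Benjamini-Hochberg value. Of the genes with a probe set of their own, none passed 0.05 by it for starvation in shoots. Only COR15A and COR47 did so for overexpression in shoots. By the authors' q-value RD29A and ERD10 passed 0.05 for starvation in shoots. COR15A, COR15B, RD29A, COR47, ERD10 and RAB18 did so for overexpression in shoots.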

How the data were processed

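Total RNA of shoots and roots was hybridised to 30 Affymetrix arrays, 3 per group; groups and replicate numbers follow the sample titles. The authors deposited RMA values on a log2 scale, 1 table for each tissue, per the file headers. The processing notes of the submitters name MAS5 instead, without a version. The tissues were treated as normalized apart, so no difference between them was tested. Per the file headers, the deposited tables also give the authors' own log2 ratios with a p-value, a Benjamini-Hochberg value and a q-value each. The overexpressor's deposited ratio is wild type minus overexpressor, and was recomputed here.

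Of 22746 probe sets, 21452 named 1 locus, 1110 several and 184 none. Symbols come from a RefSeq table (assembly TAIR10.1), which matched 21053 of the 21227 loci and lists RD29A as LTI78 and RD29B as LTI65. A tissue's test took in the 15922 probe sets with a mean of at least the 30th percentile, 5.03 in shoots and 5.33 in roots. One limma model per tissue (version 3.58.1, R 4.3.3) held the 15 arrays, with group means and an intensity trend. Tests were two-sided, with Benjamini-Hochberg adjustment over all probe sets tested and a threshold of 0.05. An exact test of 3 against 3 arrays cannot give a p under 0.10, so none was used. P-values of this model rest on the spread between replicate arrays, pooled over the 5 groups of a tissue. The number of arrays limits the precision. The scripts were tested on simulated data.

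The members and the gene lists were chosen with earlier results of these data known. All members were named, and of each list at most the 3 genes with the smallest adjusted p among those past the threshold. The arrays were treated as unpaired, because in no contrast did every pair's deviations correlate above 0.1. This rule covers all probe sets tested and cannot exclude an effect of the replicate number on single genes. Replicate 1 was the highest of 3 for all 9 genes in both sufficient and starved wild-type shoots. The alternatives were another filter, no trend, fits of the compared groups alone, a replicate block, median centring, quantile normalization, the series matrix values and leaving out each array.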

Additional observations from a re-analysis of the deposited data

Results flagged for a closer look

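Several genes had separate groups in both tissues with opposite directions, every array of the first group lying on one side in shoots and on the other in roots. The tissues were normalized apart, and the difference between them was not tested. The share of all probe sets with such opposite separation was not counted, so nothing is read from the number of cases. Under nitrogen starvation RD29A differed by 1.71 in shoots and by -0.87 in roots, and COR47 by 0.50 in shoots and by -0.15 in roots. LTP3 differed by -0.64 in VP shoots and by 0.46 in VP roots under estradiol. The LTP3 difference in shoots did not pass in the limma fit of all 5 groups (adjusted p = 0.4335). These root calls of COR47 and LTP3 were each lost in some fits that left out 1 array. The remaining cases rest on genes whose root levels lay below the filter. They are LTP4 under starvation (3.95 in shoots and -0.20 in roots), COR15B under starvation (1.57 in shoots and -0.15 in roots) and COR15B in OX (2.10 in shoots and -0.11 in roots). Groups of 3 arrays were not tested for single arrays that stand apart.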

How the results depend on the processing

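Among the alternatives that kept all arrays, the numbers of members passing moved by over 1.5 times in these cases. In VP shoots under estradiol 0 became 3 when only the compared groups were fitted, and 1 after median centring or quantile normalization. In mock VP shoots 3 became 1 with only the compared groups. In starved roots 4 became 2 without the intensity trend and 7 without the filter, and in mock VP roots 1 became 3 without the filter and 2 after median centring. Leaving out 1 array gave 0 to 1 in VP shoots, 1 to 5 in mock VP shoots, 2 to 5 in starved roots and 0 to 2 in mock VP roots; the cause was not tested. A replicate block changed no call and left the count at 8 in starved shoots, 6 in OX shoots, 4 in starved roots and 3 in OX roots. The series matrix values gave the same results. Each locus had 1 single-locus probe set among the members, so averaging probe sets was not run.

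None of the values that changed sign passed the threshold in the main setting or where its sign was turned; LTP4 in mock VP shoots (-1.55) passed without sufficient replicate 2 (-2.58, adjusted p = 0.01879). In VP shoots COR15B became -0.034 after median centring and -0.017 after quantile normalization, and COR47 became -0.0070 after median centring. In mock VP roots COR47 became -0.028 and ERD10 -0.049 after median centring, and ERD10 -0.017 after quantile normalization. In VP roots RD29B became -0.022 after quantile normalization. Leaving out 1 array gave, in VP shoots, -0.32 to 0.35 for COR15B, -0.0055 to 0.083 for COR47 and -0.15 to 0.042 for RD29B. In mock VP shoots it gave -0.59 to 0.50 for COR15B, -0.23 to 0.027 for COR47 and -2.58 to 0.0043 for LTP4, and in mock VP roots -0.029 to 0.074 for ERD10. For RD29B in roots it gave -0.14 to 0.0067 in OX, -0.012 to 0.028 in VP and -0.14 to 0.0023 for the difference of the effects. Signal near the filter limits RD29B and the 4 genes below it in roots.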
